A study of Mus musculus with 6 samples.

Results

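The endothelin system genes described here are 7 mouse genes taken by symbol from a deposited table of 56980 genes: the ligand genes Edn1 and Edn3, the converting enzyme genes Ece1 and Ece2, the receptor genes Ednra and Ednrb, and Nos3, the gene of the endothelial enzyme that makes the opposing vasodilator nitric oxide. They were chosen with values of the group comparison in view, so their levels and differences are given as a description, with no p-value. RNA of whole lungs was sequenced in 6 libraries from NSG mice, an immunodeficient strain without mature lymphocytes, taken 5 weeks after a human tumour line was put into a mammary fat pad. In the Ctrl group (n = 3) the cells were MDA-MB-231, an established human triple-negative breast cancer line, and in the DPP3_KO group (n = 3) the same line with DPP3, the gene of dipeptidyl peptidase 3, knocked out. The labels name no edit of the host in either group, every mouse received tumour cells, and no lung of a mouse without them is among these libraries. The sources used here do not give whether the knockout line is 1 clone, how old the mice were, or whether each library came from its own mouse, so p-values measure the spread between these libraries.

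Endothelins are small peptides that bind G protein-coupled receptors and are among the strongest known constrictors of blood vessels. The precursor is cut by a furin-type protease and then by a membrane-bound converting enzyme. In the lung the peptide comes mainly from endothelium and epithelium. The type A receptor on smooth muscle, pericytes and fibroblasts mediates constriction and growth, while the type B receptor on endothelium clears the peptide and triggers the release of nitric oxide and prostacyclin. In the mouse lung Ednrb is also a marker of aerocytes, the large capillary cells of gas exchange.

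The values are TPM (transcript abundance per fixed library total), which are corrected for gene length and sum to the same total in each library, so levels can be set side by side between genes but the depth is unknown. The club cell gene Scgb1a1 took 7.16% to 10.1% of all TPM in Ctrl and 21.7% to 28.7% in DPP3_KO, and the median log2 difference (DPP3_KO minus Ctrl, on the log2(TPM + 1) scale) of the 15650 tested genes was -0.60. Each difference is therefore given on the deposited TPM and again on TPM scaled by the median of ratios, called scaled below, where the median gene stood at -0.02. On scaled TPM the median difference was 0.27 over the 3919 shortest tested genes (up to 1516 bases) and -0.25 over the 3913 longest (from 4022 bases), so values with this length trend removed are given too. The lung label was checked on alveolar type 2 genes, whose summed level was 18495 to 48260 TPM. Neutrophil genes differed widely between libraries of a group: Ctrl replicate 3 had a summed level of 51309 TPM, where replicates 1 and 2 had 3995 and 7114, and DPP3_KO replicate 2 had 34395, where replicates 1 and 3 had 1639 and 14568.

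The windows around the transcription starts of the ligand gene Edn1, of the receptor genes and of 2 of the Ece1 starts are shown because the results turn on how these genes stood to each other within libraries. RefSeq windows (build GRCm38.p6, an earlier build than the GRCm39 of the deposited values) were matched by symbol for 6 of the 7 genes. Each holds 250 bases before and 50 after the start. Capitals mark matches, on either strand, to TATAAA (known as the TATA box), GGGCGG (known as the GC box), CCAAT (bound by nuclear factor Y), TGANTCA (for AP-1), TTATCT (for GATA factors), ACGTG (the hypoxia response core) and AGGAAG (for ETS factors).
Edn1, chr13:42301226-42301525, plus strand: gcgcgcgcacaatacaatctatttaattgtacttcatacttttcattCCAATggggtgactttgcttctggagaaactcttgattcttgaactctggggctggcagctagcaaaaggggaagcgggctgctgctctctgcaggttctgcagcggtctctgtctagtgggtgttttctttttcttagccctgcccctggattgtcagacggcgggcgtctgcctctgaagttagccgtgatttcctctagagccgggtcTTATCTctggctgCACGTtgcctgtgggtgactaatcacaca
Ece1, upstream start, chr4:137861987-137862286, plus strand: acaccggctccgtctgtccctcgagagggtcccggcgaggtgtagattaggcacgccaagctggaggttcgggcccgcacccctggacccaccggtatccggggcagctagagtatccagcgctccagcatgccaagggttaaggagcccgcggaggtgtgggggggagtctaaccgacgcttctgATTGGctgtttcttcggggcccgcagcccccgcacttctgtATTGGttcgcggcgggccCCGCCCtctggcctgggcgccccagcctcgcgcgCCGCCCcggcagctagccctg
Ece1, downstream start, chr4:137913308-137913607, plus strand: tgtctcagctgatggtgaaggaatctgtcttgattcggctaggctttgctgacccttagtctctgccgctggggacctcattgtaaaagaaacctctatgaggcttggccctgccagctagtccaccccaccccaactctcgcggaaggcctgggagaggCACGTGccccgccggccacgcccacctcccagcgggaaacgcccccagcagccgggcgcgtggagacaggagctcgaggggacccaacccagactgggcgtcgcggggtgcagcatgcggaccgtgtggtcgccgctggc
Ednra, chr8:77724403-77724702, minus strand: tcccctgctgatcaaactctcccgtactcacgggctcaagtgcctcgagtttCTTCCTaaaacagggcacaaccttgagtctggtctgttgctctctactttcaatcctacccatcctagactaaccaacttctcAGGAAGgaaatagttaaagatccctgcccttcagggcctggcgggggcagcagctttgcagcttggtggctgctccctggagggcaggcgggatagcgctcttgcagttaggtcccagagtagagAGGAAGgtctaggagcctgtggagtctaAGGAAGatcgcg
Ednrb, chr14:103843652-103843951, minus strand: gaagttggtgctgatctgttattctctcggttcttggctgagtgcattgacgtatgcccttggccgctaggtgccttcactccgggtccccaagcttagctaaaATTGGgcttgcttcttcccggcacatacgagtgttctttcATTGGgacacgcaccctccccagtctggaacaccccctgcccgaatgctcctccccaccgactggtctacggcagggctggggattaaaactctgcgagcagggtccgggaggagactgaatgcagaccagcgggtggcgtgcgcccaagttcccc

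The Edn1 window held a CCAAT match. After the listed RefSeq start it held a GATA match at bases 9 to 14 and the hypoxia core at 22 to 26. Of all 32851 windows, 11.2% hold the GATA motif and 19.6% the hypoxia core. Ece1 has 4 listed starts, and its upstream window held 2 GC boxes and 2 CCAAT matches (35.7% and 37.4% of all windows hold at least 1). The start printed as downstream is number 3 of the 4 by position. Its window held no GC box and a palindromic CACGTG, in which the hypoxia core matches on both strands and the matches overlap. Start 4, further downstream and not printed, held 1 GC box. The Ednra window held 4 ETS matches, a motif found in 35.4% of windows, whereas the Ednrb window held none of it and 2 CCAAT matches. The exact letters TATAAA and TGANTCA were in none of these 5 windows, against 13.6% and 7.8% of all windows. Forms of the TATA box or AP-1 motif with other letters, and bases outside the windows, were not searched. These are letter matches, not sites shown to be used, and the deposited table gives 1 value per gene, with no split between starts.

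The ligand genes overlapped between the groups, the converting enzyme gene Ece1 was several-fold lower in every DPP3_KO library, and of the receptors Ednrb differed more than Ednra. Edn1 (ENSMUSG00000021367), which encodes the main endothelin of vessels, stood at 28.0, 46.0 and 15.4 TPM in Ctrl and at 27.4, 12.9 and 18.4 TPM in DPP3_KO. The groups overlapped, since DPP3_KO replicate 1 lay near Ctrl replicate 1, and Ctrl replicate 3 lay below 2 of the DPP3_KO libraries. The Edn1 difference was -0.51 ± 0.42 SE as deposited, -0.14 without Ctrl replicate 2, and above 0 on scaled TPM (0.12 ± 0.42) and with the length trend removed (0.04). The lowest Edn1 level of each group was in Ctrl replicate 3 and DPP3_KO replicate 2, the 2 libraries with the most neutrophil RNA; the part of that in the Edn1 level was not tested. Edn3 (ENSMUSG00000027524), whose peptide prefers the type B receptor, stood at 8.94, 10.9 and 3.27 TPM in Ctrl and at 3.70, 1.89 and 1.07 TPM in DPP3_KO. Ctrl replicate 3 lay below DPP3_KO replicate 1, and the other Ctrl libraries lay above all DPP3_KO libraries. The Edn3 difference was -1.39 ± 0.46 SE as deposited and -0.89 ± 0.43 on scaled TPM. Edn2, the third ligand gene, stood at 0.26 TPM in 1 Ctrl library and at 0 in the others, and at 0.15, 0.04 and 0 TPM in DPP3_KO.

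Ece1, the gene of the main endothelin converting enzyme, was by far the most abundant member in Ctrl lungs and showed the largest difference of the 7. Ece1 (ENSMUSG00000057530) stood at 487, 364 and 405 TPM in the 3 Ctrl libraries and at 78.1, 51.1 and 42.3 TPM in the 3 DPP3_KO libraries. Every Ctrl library was more than 4 times any DPP3_KO library, with group means of 419 ± 62.8 (SD, n = 3) and 57.2 ± 18.6 TPM, or 7.32-fold. Its log2 difference was -2.89 ± 0.26 SE as deposited, -2.23 ± 0.26 on scaled TPM and -2.03 with the length trend removed. Counted from the lowest, this placed Ece1 at rank 67 of the 15650 tested genes as deposited and at rank 91 after the scaling. Leaving out each library in turn gave -3.13 to -2.70 as deposited and -2.46 to -2.09 on scaled TPM. The neuronal relative Ece2 (ENSMUSG00000022842) was near the bottom of the table at 0.17, 0.29 and 0.04 TPM in Ctrl and 0.13, 0.06 and 0 TPM in DPP3_KO. The groups overlapped, and Ece2 did not reach the mean of 1 TPM needed for a test.

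The type B receptor gene showed a difference beyond that of the median gene. Ednrb (ENSMUSG00000022122) stood at 29.8, 35.5 and 24.1 TPM in Ctrl and at 13.1, 11.3 and 11.9 TPM in DPP3_KO. The 3 DPP3_KO values lay within 2 TPM of each other and all below the lowest Ctrl value. The log2 difference was -1.22 ± 0.20 SE as deposited and -0.59 ± 0.18 on scaled TPM. The groups still did not overlap on scaled TPM, as for 15.2% of all tested genes with DPP3_KO below. Counted from the lowest, Ednrb ranked 1618 of the 15650 tested genes as deposited and 1931 after the scaling. Ednra (ENSMUSG00000031616) stood at 57.2, 69.8 and 46.1 TPM in Ctrl and at 45.8, 32.0 and 32.8 TPM in DPP3_KO. The groups touched but did not overlap as deposited, at 46.14 and 45.77 TPM. The Ednra difference of -0.63 ± 0.23 SE was close to that of the median gene, and it stood at 0.02 ± 0.21 on scaled TPM and 0.13 with the length trend removed, with overlapping groups.

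The ratio of the receptors within a library does not depend on how libraries are scaled. Ednra over Ednrb was 1.92, 1.97 and 1.92 in the Ctrl libraries and 3.49, 2.84 and 2.77 in the DPP3_KO libraries. The Ctrl ratios were nearly equal although the 2 genes differed between those libraries, and the 3 DPP3_KO ratios were all higher, with a mean log2 ratio of 0.95 ± 0.022 (SD, n = 3) against 1.59 ± 0.18. With 3 libraries in each group an exact two-sided permutation test cannot go below p = 0.1, and none is given. Ednrb was 0.0513, 0.0551 and 0.0569 of the summed level of 7 other aerocyte markers in Ctrl and 0.0494, 0.0498 and 0.0510 in DPP3_KO, a log2 difference of -0.12 with every DPP3_KO value just below every Ctrl value. Those 7 markers did not move together: 4 fell as deposited and 0 on scaled TPM (limma; unadjusted, 4 lower and 1 higher), and their log2 differences ran from -1.92 for Apln to 0.28 for Fibin, with a median of -1.60. Fibin made up 7.10% to 23.2% of the sum in Ctrl and 26.3% to 33.7% in DPP3_KO. Against the sum without Fibin, an alternative chosen after seeing the data, the Ednrb ratio differed by 0.20 on the log2 scale and the groups overlapped. Against each of the 7 genes alone it differed by -1.57 to 0.99, with overlap for 5 of them. The part of aerocytes in the Ednrb level was not tested. In RNA of whole tissue, fewer cells of a type and less RNA per cell cannot be told apart.

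**Figure D1:**
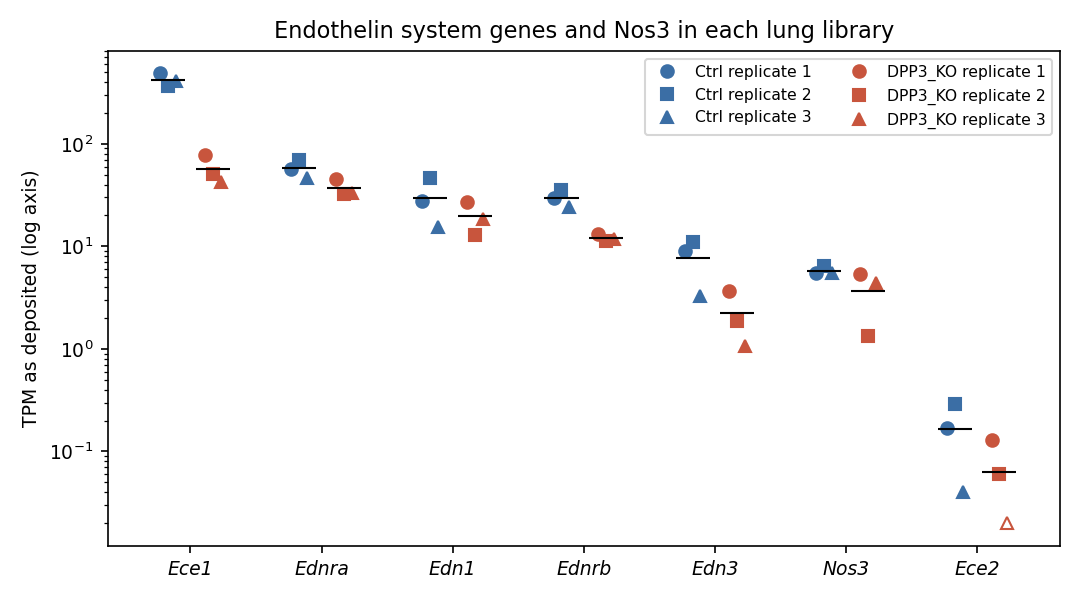
TPM as deposited (log axis) of the 7 genes in each of the 6 lung libraries, with Ctrl in blue, DPP3_KO in red, a symbol for each replicate and a black line at each group mean. Ece1 lies between 364 and 487 TPM in Ctrl and between 42.3 and 78.1 in DPP3_KO, while the groups overlap for Edn1, Edn3 and Ece2; the open symbol for Ece2 marks a value of 0 drawn at the foot of the axis.

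Nos3 (ENSMUSG00000028978) was low in these lungs, at 5.53, 6.40 and 5.47 TPM in Ctrl and at 5.34, 1.33 and 4.37 TPM in DPP3_KO. The DPP3_KO values all lay below Ctrl as deposited, by a narrow margin in replicate 1 and a wide one in replicate 2. The Nos3 difference was -0.66 ± 0.38 SE as deposited, -0.12 ± 0.43 on scaled TPM and 0.04 with the length trend removed. Without DPP3_KO replicate 2 it was -0.22 as deposited and 0.42 on scaled TPM. That library also had the lowest summed level of 9 pan-endothelial markers (909 TPM, against 1285 and 1577 in the other DPP3_KO libraries and 2180 to 2831 in Ctrl).

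Counted together, 6 of the 7 genes reached the level for a test, and all 6 of these stood lower in DPP3_KO as deposited. By the limma fit over all genes, with Benjamini-Hochberg adjusted p under 0.05, Ece1 and Ednrb were among the genes called lower, as were 34.0% of all tested genes, and 0 members were among the 1.38% called higher (limma; 0 at an unadjusted p under 0.05). The groups did not overlap, with DPP3_KO below, for 4 of the 7 (Ece1, Ednra, Ednrb and Nos3), against 51.1% of all tested genes. On scaled TPM Ece1 was the 1 member called lower (0.888% of all tested genes), 0 were called higher (1.94%; 0 at an unadjusted p under 0.05), and Ece1 and Ednrb did not overlap (15.2% with DPP3_KO below). With the length trend also removed 0.581% of genes were called lower, Ece1 among them. Without Ctrl replicate 2 the deposited values gave Ece1 alone. On scaled TPM Ece1 was not among the called genes without Ctrl replicate 1, DPP3_KO replicate 2 or DPP3_KO replicate 3. Because the members were chosen on this comparison, nothing is read from these shares.

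**Figure D2:**
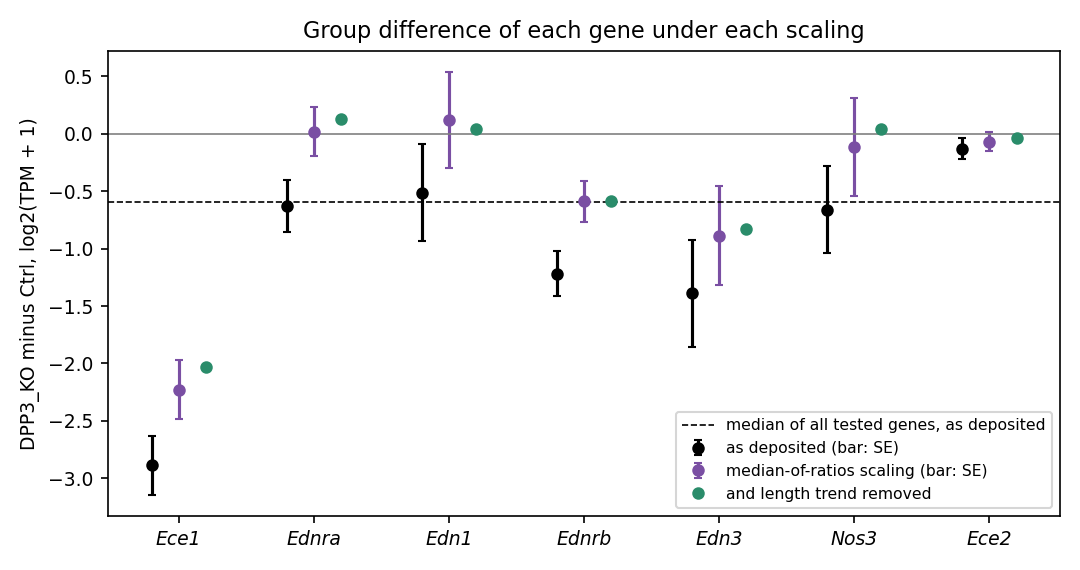
Difference DPP3_KO minus Ctrl on the log2(TPM + 1) scale for each gene as deposited (black, bar: SE), on scaled TPM (purple, bar: SE) and with the length trend also removed (green); the dashed line is the median of all tested genes as deposited (-0.60). Ece1 lies below -2 in all 3, whereas Ednra, Edn1 and Nos3 lie near 0 on scaled TPM.

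In Ctrl lungs the order of the mean levels was Ece1, Ednra, Edn1, Ednrb, Edn3, Nos3 and Ece2, at 419, 57.7, 29.8, 29.8, 7.72, 5.80 and 0.167 TPM. Neighbours in this order that overlapped were Edn1 with Ednrb and Edn3 with Nos3; Ednra and Edn1 were barely apart, at a lowest of 46.14 and a highest of 46.02 TPM. In DPP3_KO lungs the means were 57.2 for Ece1, 36.9 for Ednra, 19.6 for Edn1, 12.1 for Ednrb, 3.68 for Nos3, 2.22 for Edn3 and 0.0633 TPM for Ece2. There Ece1 and Ednra overlapped, as did Edn1 with Ednrb and Nos3 with Edn3.

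Ratios within a library set the converting enzyme against its substrate, the receptors and the endothelium. Ece1 over Edn1 was 17.4, 7.90 and 26.4 in Ctrl and 2.85, 3.96 and 2.30 in DPP3_KO, so all DPP3_KO values lay below all Ctrl values. Ece1 over Ednra was 8.51, 5.21 and 8.78 in Ctrl and 1.71, 1.60 and 1.29 in DPP3_KO. These groups did not overlap either. Both ratios largely restate the difference of Ece1 itself, a gene chosen with this comparison in view. Set against the summed pan-endothelial markers, Ece1 was 0.172, 0.133 and 0.186 in Ctrl and 0.0608, 0.0562 and 0.0268 in DPP3_KO, a mean difference of -1.85 on the log2 scale. The pan-endothelial list itself had a median log2 difference of -1.75, with 6 of 9 genes called lower as deposited and 2 on scaled TPM, and 0 of its genes were at 0 in every library. The size of that ratio depends on the marker, since Egfl7 and Cldn5 made up 40.7% to 49.2% of the sum in Ctrl and 62.0% to 75.5% in DPP3_KO and did not pass the test (-0.42 and -0.43), while Cdh5 (-2.55) and Tek (-2.49) lay close to Ece1 itself. Without Egfl7 and Cldn5, an alternative chosen after seeing the data, the Ece1 ratio differed by -0.98, with no overlap. Against each of the 9 genes alone it differed by -2.49 to -0.34, and the groups overlapped for Cdh5 and Tek. The length trend was not removed from any ratio given here, and Ece1 is listed at 4816 bases, against 1388 for Egfl7 and 1416 for Cldn5. Endothelial cells are not the only source of Ece1, and other lists moved as well. The alveolar macrophage list had a median of -3.05, with 5 of 7 called lower under both scalings. Its summed level was 972 to 2757 TPM in Ctrl and 150 to 1666 in DPP3_KO. Of alveolar type 1 genes 6 of 7 were called lower as deposited and 2 on scaled TPM (median -1.92 as deposited). Of alveolar type 2 genes 4 of 7 and 0 were (median -1.25). The club and ciliated cell lists went the other way (medians 1.75 and 1.28). The part of any of these cell types in the Ece1 level was not tested.

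For the ligands and Nos3 the ratios were less clear. Edn1 over Edn3 was 3.13, 4.21 and 4.70 in Ctrl and 7.39, 6.83 and 17.2 in DPP3_KO, and the groups did not overlap. Edn1 over Nos3, the constrictor against the dilator gene, was 5.06, 7.19 and 2.81 in Ctrl and 5.12, 9.71 and 4.21 in DPP3_KO. These overlapped, with a mean log2 difference of 0.34 that was smaller than the SD within either group (0.68 and 0.63). Nos3 over the pan-endothelial sum overlapped too, at 0.00195 to 0.00251 in Ctrl and 0.00146 to 0.00416 in DPP3_KO. Without Egfl7 and Cldn5 in the sum, an alternative chosen after seeing the data, the Nos3 ratio differed by 1.04 on the log2 scale. Every DPP3_KO library then lay above Ctrl, but replicate 2, with Nos3 at 1.33 TPM, only narrowly (0.00477 against at most 0.00423). Against each gene alone the log2 difference ran from -0.46 for Egfl7 to 1.69 for Cdh5, and the groups overlapped for 7 of the 9 genes.

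**Figure D3:**
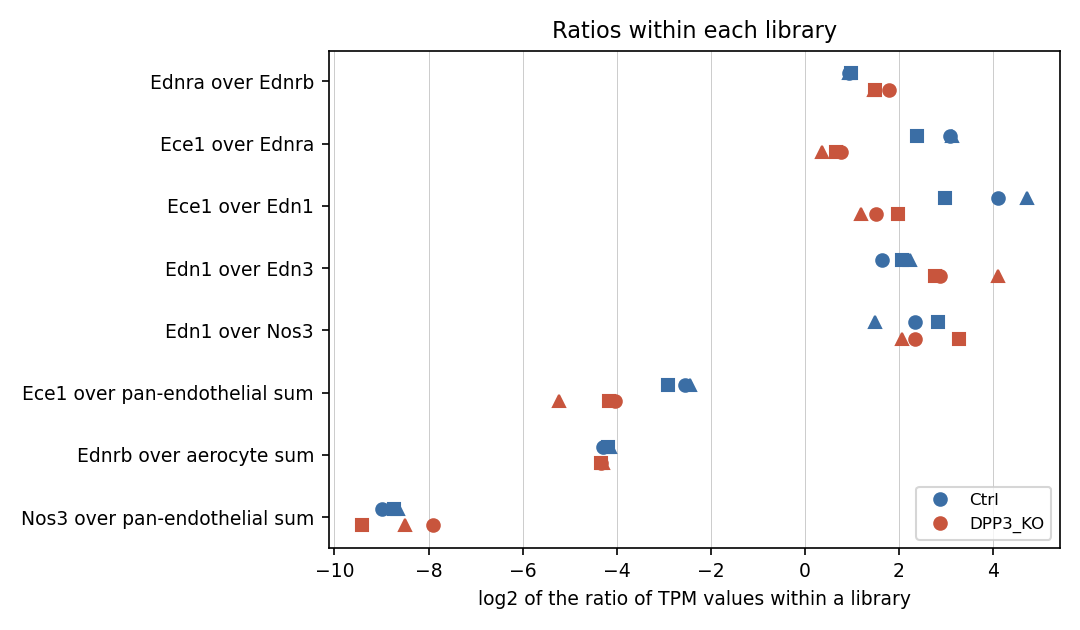
Log2 ratios of TPM values within each library for pairs of members and for members against summed markers (circles, squares and triangles are replicates 1, 2 and 3). Ednra over Ednrb is 0.94 to 0.98 in Ctrl and 1.47 to 1.80 in DPP3_KO, while Edn1 over Nos3 overlaps. Each plotted ratio of Ece1 is lower in DPP3_KO, as is Ece1 itself.

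Markers of the cells that carry the type A receptor did not move in 1 direction. Of 7 smooth muscle markers 1, Lmod1, rose (log2 change 1.02, limma adjusted p = 0.0298, and 1.58 and 0.0237 on scaled TPM). At an unadjusted p under 0.05 (limma), 2 were higher and 0 lower on deposited values, and 6 and 0 on scaled TPM. The list's median was 0.86 as deposited and 1.51 on scaled TPM. Its summed level was 593, 511 and 159 TPM in Ctrl and 1000, 651 and 433 in DPP3_KO. On scaled TPM the sum was 134 to 473 in Ctrl and 620 to 1241 in DPP3_KO. Of 7 pericyte markers 3 fell as deposited and 0 on scaled TPM (limma; unadjusted, 2 lower and 0 higher; 187 to 399 TPM summed in Ctrl, 96.7 to 216 in DPP3_KO). Of 8 fibroblast markers 0 passed by limma (unadjusted, 2 lower and 0 higher on deposited values, 0 and 1 on scaled TPM). Ednra over the smooth muscle sum was 0.0965, 0.137 and 0.290 in Ctrl and 0.0458, 0.0492 and 0.0758 in DPP3_KO, all lower, whereas Ednra over the pericyte sum overlapped (0.144 to 0.247 and 0.211 to 0.332). Ednra over the fibroblast sum overlapped too, at 0.0125 to 0.0166 in Ctrl and 0.0106 to 0.0126 in DPP3_KO. Cardiac muscle markers summed to 473 to 941 TPM in Ctrl and 1745 to 1920 in DPP3_KO, with 5 of 7 higher. The part of these cell types in the Ednra level was not tested.

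Over the 6 libraries, on scaled TPM, Edn1 and Ednra varied together (Pearson r = 0.95 on log2 values), as did Ece1 and Ednrb (r = 0.86), while Edn1 and Ece1 had r = -0.06. These are descriptions over 6 points that share the 2 groups. Among genes with a known name whose mean reached 10 TPM, those most like each member were Cpm, the carboxypeptidase M gene (r = 0.999), Ccm2l (0.993) and Plekhm2 (0.993) for Ece1. For Ednrb they were Spns1 (0.996), the complement gene C7 (0.989) and Pcnx (0.988). Among the nearest to Edn1 were Kctd15 (0.989) and Rbm10 (0.962), and among the nearest to Ednra Eya2 (0.990) and Rbm10 (0.980). Edn3 was nearest to Bcl9l (0.995), Trim35 (0.994) and Zfta (0.992), and Nos3 to the long non-coding RNA gene Bvht (0.986), the chaperonin gene Cct5 (0.980) and the lipid droplet gene Hilpda (0.972). With 6 libraries such values are common: 395 of 8193 genes had r above 0.9 with Ece1, 252 with Ednrb and 38 with Edn1.

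Genes around the endothelin and nitric oxide pathways, in 5 lists that leave out the members, were lower more often than higher on the deposited values, as were genes in general (34.0% of all tested genes called lower, 1.38% higher, median -0.60). Of 99 genes 91 were tested, and 53 (58.2%) fell and 0 rose over all genes (limma; 0 were higher at an unadjusted p under 0.05), with a median log2 change of -0.84. On scaled TPM 2 fell, Ddah1 and Ets1, and 0 rose (limma; 5 were higher and 21 lower at an unadjusted p under 0.05), with a median of -0.21. Without Ctrl replicate 2 the 53 became 0 in the limma fit (unadjusted, 47 were lower and 0 higher). Each fall named below was therefore lost without that library, where all genes called lower went from 5321 to 85. Without Ctrl replicate 1 and without DPP3_KO replicate 3 the 53 became 13 and 20. All genes called lower became 1037 and 1726 in those fits. On scaled TPM the 2 became 5 without DPP3_KO replicate 1 and 0 without any of the other 5 libraries (limma; unadjusted, 13 to 17 lower and 1 to 4 higher).

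Among processing and degrading peptidases 4 of 6 tested genes (66.7%, against 34.0% of all genes) fell on deposited values and 0 on scaled TPM (limma; unadjusted, 1 lower and 0 higher). Furin, a convertase that cuts the precursor ahead of the converting enzyme, fell from 54.9 ± 5.89 to 27.3 ± 4.67 TPM (log2 -0.99 ± 0.19 SE, limma adjusted p = 0.0172, and -0.34 on scaled TPM). Its relatives Pcsk7 (-1.10, adjusted p = 0.0152) and Pcsk5 (9.68 ± 2.19 to 4.37 ± 1.32 TPM, 0.0291) fell too, as did Ctsa, the lysosomal cathepsin A gene (-1.18, 0.0199). Mme, the gene of neprilysin, which degrades endothelin, stood at 30.3, 50.5 and 21.8 TPM in Ctrl and at 25.3, 9.20 and 9.59 TPM in DPP3_KO. The Mme groups overlapped, and its log2 difference of -1.23 did not pass (adjusted p = 0.0641). The other 5 genes of this list, Edn2, the chymase gene Cma1, Ecel1, Kel and Mmel1, lay below a mean of 1 TPM.

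Of 35 tested receptor coupling genes 21 (60.0%) fell on deposited values and 0 on scaled TPM (limma; unadjusted, 10 lower and 1 higher), with medians of -0.90 and -0.25. Arrb1, the arrestin gene that uncouples and internalizes receptors, fell from 94.2 ± 11.8 to 28.3 ± 11.1 TPM (log2 -1.76 ± 0.28 SE, limma adjusted p = 0.0148). It stood at -1.11 on scaled TPM and did not pass there (adjusted p = 0.0752). Gnaq, the G protein subunit gene through which both receptors raise calcium, fell on deposited values (-1.03, adjusted p = 0.0177), with a value of -0.39 on scaled TPM. The protein kinase C gene Prkce (-1.20, adjusted p = 0.0158) and the guanine nucleotide exchange factor gene Arhgef11 (-1.41, 0.0176) fell as well, with -0.61 and -0.81 on scaled TPM.

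In the nitric oxide and cGMP list 14 of 30 tested genes (46.7%) fell on deposited values, and the list's median of -0.63 was near the -0.60 of all tested genes. The 1 gene still lower on scaled TPM was Ddah1, whose enzyme removes the nitric oxide synthase inhibitor asymmetric dimethylarginine. Ddah1 stood at 21.9, 20.8 and 15.9 TPM in Ctrl and at 5.83, 3.59 and 2.01 TPM in DPP3_KO, groups that did not overlap. Its log2 change was -2.16 ± 0.32 SE (limma adjusted p = 0.0145; -1.59 and 0.0452 on scaled TPM), and with the length trend removed it did not pass (adjusted p = 0.0553). Gucy1a1 and Gucy1b1, the subunit genes of the soluble guanylate cyclase that senses nitric oxide, fell on deposited values (-1.66 and -1.84, adjusted p = 0.0177 and 0.0176). They stood at -1.03 and -1.20 on scaled TPM, where neither passed (adjusted p = 0.117 and 0.116). The caveolin gene Cav1 (-2.29, adjusted p = 0.0145), whose protein holds back the synthase, fell on deposited values and stood at -1.63 on scaled TPM. Pde5a, which breaks down cGMP, fell on deposited values (-1.44, adjusted p = 0.0348), and the cGMP-dependent kinase gene Prkg1 did not pass (-0.83, adjusted p = 0.0508).

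**Figure D4:**
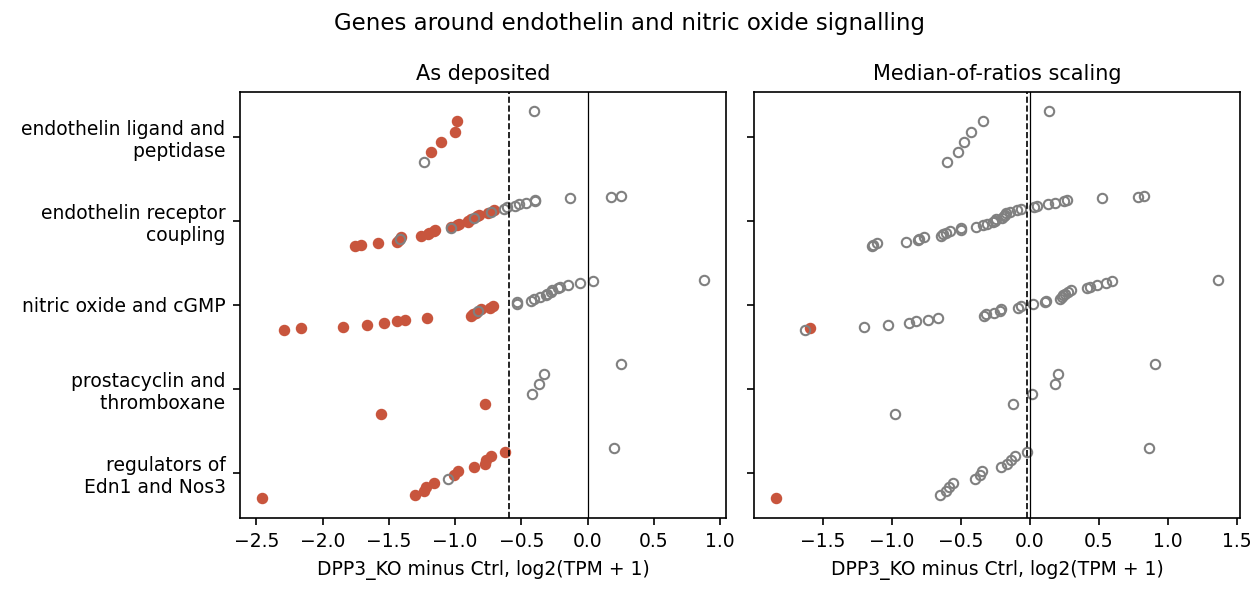
Log2(TPM + 1) difference of each tested gene of the 5 lists on deposited TPM (left) and on scaled TPM (right), sorted within a list; filled red points passed the limma test and the dashed lines are the medians of all tested genes. Most points lie left of 0 on the deposited values, where 53 of 91 passed, and on scaled TPM the 2 that passed are Ddah1 and Ets1.

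The prostacyclin and thromboxane list had 2 of 6 genes lower on deposited values (33.3%, near the 34.0% of all tested genes) and 0 on scaled TPM (limma; unadjusted, 1 lower and 1 higher). These were Ptgs1, a cyclooxygenase gene (-0.77, limma adjusted p = 0.0231), and the thromboxane synthase gene Tbxas1 (-1.56, 0.0182), at -0.12 and -0.97 on scaled TPM. Ptgs2 and the prostacyclin receptor gene Ptgir did not pass, at -0.37 and -0.33 on deposited values and 0.20 and 0.18 on scaled TPM.

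Of 14 genes of factors known to act on Edn1 or Nos3, 12 (85.7%) fell on deposited values and 1 on scaled TPM. That 1 was Ets1, the gene of an ETS factor of endothelium and lymphoid cells, at 41.9, 54.8 and 48.1 TPM in Ctrl and 12.5, 7.22 and 5.44 TPM in DPP3_KO, with no overlap. Its log2 change was -2.45 ± 0.29 SE (limma adjusted p = 0.0144; -1.84 and 0.0240 on scaled TPM, -1.92 and 0.0331 with the length trend removed). Gata2 (-1.30, adjusted p = 0.0168) and the hypoxia-inducible factor genes Epas1 (-1.22, 0.0158) and Arnt (-1.24, 0.0170) fell on deposited values and stood at -0.65, -0.56 and -0.61 on scaled TPM. Of the shear-stress factors that raise Nos3 and lower Edn1, Klf4 fell on deposited values (-1.01, adjusted p = 0.0262) and stood at -0.36 on scaled TPM. Klf2 was at 301, 139 and 187 TPM in Ctrl and 189, 239 and 264 TPM in DPP3_KO. Its groups overlapped, and it did not pass (log2 difference 0.20, adjusted p = 0.604; 0.86 and 0.196 on scaled TPM).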

How the data were processed

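Mouse lung RNA of 6 libraries (3 Ctrl, 3 DPP3_KO) was analysed from 1 deposited table. Its values are the authors' TPM, per the file headers; the submitters' processing notes name HISAT2, StringTie, RSEM and the build GRCm39, without versions or roles. The sources used here do not give the annotation release, the strand setting or how reads of human cells were handled, so reads of overlapping or antisense genes cannot be told apart. TPM keeps no depth, so no counting interval is given. Groups and replicate numbers came from the titles; the title of Ctrl replicate 3, the Ctrl library with the most neutrophil RNA, reads 232 where the others and its own column read 231, and whether this is a slip is not known.

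Log2(TPM + 1) values of the 15650 genes whose mean reached 1 TPM were fitted with limma 3.58.1 in R 4.3.3 (eBayes with trend, two-sided, Benjamini-Hochberg over all tested genes, threshold 0.05). Ece2, below that mean, has a difference from the fit without a filter. Median-of-ratios scaling used genes above 0 in every library with a mean of 1 TPM or more. The length trend was removed by lowess (span 0.3) per library, an alternative chosen after seeing the data. The other alternatives were a pseudocount of 0.1 or 5, a minimum mean of 5 TPM or none, quantile normalization, TPM rescaled without Scgb1a1, limma without the trend, the replicate block, and each library left out, as deposited and after scaling. Simulated data with known changes served to test the fit.

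The members, lists and rules were chosen with earlier results of these data known. Named genes are the 7 members, Edn2, Mme, Furin, Gucy1a1, Gucy1b1, Prkg1, Pde5a, Klf2 and Klf4, the 4 tested genes with the smallest p of each pathway list, and the 3 genes most like each tested member. Some genes that this rule names are not reported here. Lmod1, Cma1, Ecel1, Kel, Mmel1, Apln, Fibin, Egfl7, Cldn5, Cdh5 and Tek were named after their values were seen. Further cell type lists, some also named in the report, are given here as genes called lower and higher as deposited. General capillary had 6 and 0 of 6, arterial endothelium 4 and 0 of 6, and club cell 0 and 4 of 6. Ciliated cell had 0 and 5 of 6, alveolar type 1 6 and 0 of 7, and alveolar type 2 4 and 0 of 7. Cardiac muscle had 0 and 5 of 7, neuroendocrine 0 and 2 of 3, and adipose 0 and 1 of 5. Neutrophil, mast cell and mesothelium had 0 and 0 of 6, 1 and 5.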

Additional observations from a re-analysis of the deposited data

How the results depend on the processing

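Ece1 was called lower under each alternative except in 3 of the 6 fits that left out a library after median-of-ratios scaling (Ctrl replicate 1, DPP3_KO replicate 2 or DPP3_KO replicate 3), and its log2 difference stayed between -3.13 and -2.03. Ednrb was called as deposited but not without Ctrl replicate 2 or with the length trend removed. It was also not called after median-of-ratios scaling, after quantile normalization or with TPM rescaled without Scgb1a1. As the members were chosen on this comparison, these calls only describe the fits, and nothing is read from them. All genes called lower, 5321 as deposited, were 3093 without a filter, 139 after median-of-ratios scaling, 140 after quantile normalization, 423 with TPM rescaled without Scgb1a1 and 91 with the length trend removed, and genes called higher, 216 as deposited, were 327 after quantile normalization. The pathway genes called lower were 33 without a filter, 2 after median-of-ratios scaling, 3 after quantile normalization, 6 with TPM rescaled without Scgb1a1 and 1 with the length trend removed. With 1 library left out, as deposited or after scaling, genes called lower ranged from 8 to 5049, genes called higher from 6 to 189 and pathway genes called lower from 0 to 46; where this left 2 libraries in a group, the pooled spread of the fit was used. The cause of these shifts was not tested.

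Directions turned for values near the typical gene. Edn1 stood at 0.12 after median-of-ratios scaling, 0.14 after quantile normalization and 0.043 with the length trend removed, with -0.91 to 0.46 over the fits without 1 library. Ednra stood at 0.018 and 0.13 after median-of-ratios scaling without and with removal of the length trend (-0.79 to 0.20 without 1 library), and Nos3 at 0.042 with the trend removed (-0.94 to 0.42). Ptgir stood at 0.18, 0.19 and 0.26 and Ptgs2 at 0.20, 0.25 and 0.38 under median-of-ratios scaling, quantile normalization and removal of the trend, with ranges of -0.52 to 0.37 and -0.67 to 0.43. Klf2 ranged from -0.055 to 1.16 over the fits without 1 library. Same-numbered libraries of the 2 groups deviated from their group means with r = 0.27, -0.21 and 0.15. Not every library correlated best with its own number. The labels do not say that numbers pair samples, and with 3 libraries in each group these values cannot decide it. With the replicate number as a block (replicate block), 4734 genes were called lower and 212 higher, 48 pathway genes were called lower, and Edn3 joined Ece1 and Ednrb. Depth is unknown, so what it limits cannot be given; the values of Ece2 and Edn2, below 0.3 TPM in every library, are too low to compare.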
